A study of Caenorhabditis elegans with 2 samples.

Results

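The thin filament of striated muscle was examined through 10 *Caenorhabditis elegans* genes, chosen by the proteins they encode, out of 19973 protein-coding genes of the nuclear chromosomes. They were *act-1*, *act-2*, *act-3* and *act-4*, which encode actins, *mup-2* (troponin T), *unc-27* (troponin I), *lev-11* (tropomyosin), *cpn-3* (a calponin-like protein), and *clik-1* and *unc-87*, which encode proteins with calponin-like repeats. The measurement was the chromatin occupancy of UNC-98, a C2H2 zinc finger protein found at muscle attachment structures and in nuclei. Animals of strain OP85 carried the insertion wgIs85, in which *unc-98* is joined to TY1, EGFP and 3xFLAG tags next to an *unc-119*(+) rescue gene, in an *unc-119*(ed3) background. Whole L1 larvae, 6 hours old and starved after bleaching, were used. Chromatin was sheared to 200 to 800 bp, and UNC-98::GFP was precipitated with an anti-GFP antibody in 2 biological replicates of 1 group. The tagged protein came from the transgene. Because whole larvae were used, the tissue in which a region was occupied is not known. No untagged strain or second condition was analysed here, so no test between groups was possible and all counts are descriptions.

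The thin filament is the actin cable that the myosin of the thick filament pulls on. Tropomyosin lies along it, and the troponin complex (T, I and C) moves tropomyosin when calcium rises, which opens the myosin binding sites. Calponin-like proteins bind along actin and hold filaments together, and in this nematode UNC-87 and CLIK-1 are such proteins of body wall muscle.

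Of the 10 genes, 4 had a UNC-98::GFP region at their promoter in the conservative list, which rests on agreement between both replicates: *act-4*, *mup-2*, *cpn-3* and *clik-1*. A gene counted as bound when a region's summit lay in its promoter window, the stretch that begins 1000 bp before a coding transcript's 5′ end and stops 500 bp after it. By this rule 632 of all protein-coding genes, or 3.16%, were bound. The other 6 genes, *act-1*, *act-2*, *act-3*, *unc-27*, *lev-11* and *unc-87*, had none in that list. The members were chosen with earlier results on muscle genes from these data known, so their share is not independent support for a difference from other genes.

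Sequence from 3 of these regions, those of *mup-2*, *act-4* and *clik-1*, is shown with that of an *act-1* region found in the replicate 1 list, so that the bases at or just upstream of the summits can be read. None is shown for *cpn-3*. Each is from the RefSeq copy of WBcel235 (ce11), 5′ to 3′ on the strand of the gene, and bases of the gene's own untranslated exons are left out. Capitals mark GAGAG, a purine repeat searched on both strands (CTCTC is its other strand), and TATAAA, the core of a TATA box.
mup-2, chrX:6410495-6410695, minus strand: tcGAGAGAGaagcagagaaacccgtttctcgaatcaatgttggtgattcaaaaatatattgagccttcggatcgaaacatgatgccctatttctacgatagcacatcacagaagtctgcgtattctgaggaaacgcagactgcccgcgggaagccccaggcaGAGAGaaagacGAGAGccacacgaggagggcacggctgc
act-4, chrX:4960435-4960620, plus strand: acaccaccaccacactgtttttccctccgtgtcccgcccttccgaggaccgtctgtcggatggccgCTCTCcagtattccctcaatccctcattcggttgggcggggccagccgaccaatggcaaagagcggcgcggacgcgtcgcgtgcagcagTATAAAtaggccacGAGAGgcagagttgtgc
clik-1, chrV:6768733-6768808, minus strand: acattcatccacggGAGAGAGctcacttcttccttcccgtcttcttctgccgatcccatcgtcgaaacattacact
act-1, chrV:11080531-11080731, plus strand: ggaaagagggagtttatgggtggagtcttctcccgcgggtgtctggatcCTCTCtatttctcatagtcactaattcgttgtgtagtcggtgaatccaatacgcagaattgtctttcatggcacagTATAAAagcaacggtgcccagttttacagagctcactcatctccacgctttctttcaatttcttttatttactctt

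The *mup-2* and *act-1* stretches reach 100 bp to each side of the summit, while those of *act-4* and *clik-1* are the parts of the region upstream of the 5′ end. The *clik-1* stretch does not reach its summit, which lies 81 bp downstream of the 5′ end, and it runs over the end of the coding sequence of T25F10.1 on the other strand. In *act-4* the TATAAA lies from −31 to −26 bp relative to the annotated start, and the region's summit, at −28 bp, is inside it. That summit is the midpoint of a region of set width. The regions matched to it in replicate 1 and replicate 2 had summits at −32 and 99 bp, both outside the TATAAA. The TATAAA of the *act-1* window lies from −396 to −391 bp. This window runs over parts of the annotated non-coding RNA genes T04C12.16 and T04C12.25. A match is a description of the letters and was not read as a binding site.

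The actin genes come first, as the filament itself. *act-4* lies on chromosome X (4960621 to 4964413, plus strand), and its region (4960435 to 4960750) spanned the start of the longer transcript. The deposited signal, a score that the authors' software gave each region on a scale not stated, was 68.9 in the conservative list, rank 644 of 728. In the replicates' own ranked lists of candidate regions the matching signals were 38.0 in replicate 1 and 45.8 in replicate 2. These ranked 965 of 103403 and 499 of 106737, high in each list, yet neither replicate's thresholded list held the region.

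The irreproducible discovery rate (IDR), here the global one, estimates the share not found again in a repeat among regions at least as reproducible. Every region in the thresholded lists had a −log10 IDR of at least 2, an IDR of 0.01 or lower. For the *act-4* region it was 2.44 in the conservative list. It was 1.48 for the replicate 1 candidate and 0.0333 for that of replicate 2. What was compared to give the IDR in a list of 1 replicate is not known here. Such values, here and below, may thus not measure the same thing as those of the conservative list. A second *act-4* region (4960634 to 4960949) had its summit 171 bp downstream, in the first intron of the longer transcript, with a signal of 6.89 and nearly the same −log10 IDR of 2.45. It overlapped the first region, and both matched the same candidate in each replicate, with summits at −32 bp in replicate 1 and 99 bp in replicate 2. This was the only summit in an intron of any of the 10 genes in the conservative list. Over all 19285 genes with introns, 0.752% had one in the conservative list and 0.788% in the second series list, which also held the *act-4* summit. The replicate 1 list (0.56% of genes) and the replicate 2 list (0.384%) held 0 members with an intron summit.

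*act-4* also had a candidate farther into that intron, at −718 bp from the start of the shorter transcript (4961999 to 4962314). Its signal of 63.8 was close to that of the called region, but its −log10 IDR was 1.62, below the threshold. In the second ranked list of the series it was 1.90, again short of 2.

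*act-1*, *act-2* and *act-3* lie next to each other on chromosome V. *act-1* (11081052 to 11082415, plus strand) had a region at −421 bp in the replicate 1 list (11080493 to 11080768, signal 49.5, −log10 IDR 2.10). That region overlapped the annotated non-coding RNA genes T04C12.16 and T04C12.25, and its summit lay outside both. The matching candidate of replicate 2 had a signal of 21.9 and a −log10 IDR of 0.0624. The candidate of the series reached 72.0, above the 68.9 of *act-4*, but its −log10 IDR was 0.934 in the ranked list that goes with the conservative list and 1.84 in the second. Replicate 1 was thus high at *act-1* and replicate 2 was not. *act-3* (11071690 to 11074498, minus strand) had a best candidate of 32.6 in replicate 1 and 20.9 in replicate 2, and *act-2* (11076777 to 11078154, minus strand) 18.6 and 27.1. None of these passed the threshold.

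Reads from the actin genes can be hard to place, since the coding sequences are near copies. Those of *act-1* and *act-3* were identical over all 1128 bp, and *act-4* differed from both in 1 of 376 residues, with 94.2% of the bases the same. Of the stretches of 36 bases in the coding exons, 0 of 1023 occurred once in the genome for *act-1* and for *act-3*, against 81.1% for *act-4* and 57.7% for *act-2*. Both called *act-4* regions and the *act-1* region of the replicate 1 list were not affected in this way: every 36-base stretch in them was unique. The read length is not stated, and with stretches of 50 bases they were also unique throughout. The other candidates named above were not checked. Over the whole promoter windows, 69.6% of 36-base stretches were unique for *act-1*, 83.5% for *act-3*, 95.7% for *act-2* and 96.5% for *act-4*. Candidates over the exons of *act-1*, *act-2* and *act-3* remain uncertain.

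**Figure D1:**
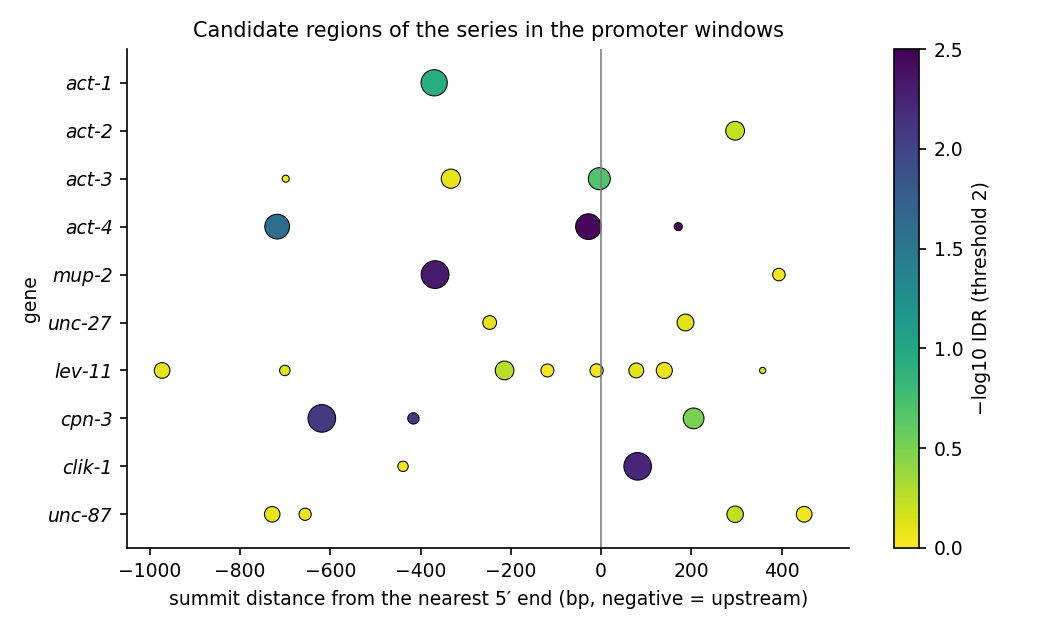
Summits of the 29 candidate regions of the series in the promoter windows of the 10 genes, by distance from the nearest 5′ end in bp (negative is upstream); circle area follows the deposited signal and colour gives the −log10 IDR. The 6 circles past 2 belong to *act-4*, *mup-2*, *cpn-3* and *clik-1*, and the small ones at *act-4* and *cpn-3* are the overlapping second regions.

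Troponin and tropomyosin genes regulate the filament. *mup-2* (X, 6408471 to 6410227, minus strand) had 1 region, at −368 bp (6410437 to 6410752), with a signal of 80.8, the highest of the 10 genes and rank 535 of 728. Replicate 1 gave 35.0 and replicate 2 gave 42.1, with −log10 IDR of 2.08 and 1.52. It was the only member in the conservative list, the second series list and the replicate 1 list, and it fell short of the replicate 2 list. The summit lay within T22E5.10, an annotated non-coding RNA gene on the same strand (6410539 to 6410672), so position alone does not assign the region to 1 of the genes. *unc-27* (X, 8789456 to 8790621, plus strand) had the lowest replicate 1 value of all members, 5.63, with 19.3 in replicate 2. *lev-11* (I, 14621169 to 14631094, minus strand) has 11 annotated 5′ ends and the widest window, 4449 bp against 1501 bp for the median gene, which gives it more chances of a high candidate. Its best values were 16.04 and 23.7, and its strongest intron candidate in the series list (14622745 to 14623060) had a signal of 44.9 and a −log10 IDR of 0.198.

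Among the calponin-like genes, *cpn-3* (I, 3987940 to 3988699, plus strand) had the strongest single-replicate value of the 10, with a candidate of 63.7 in replicate 1 (at −637 bp, −log10 IDR 2.37). The best candidate of replicate 2, 29.6, lay at −433 bp with a −log10 IDR of 0.864. The conservative list gave 2 overlapping regions at −619 and −416 bp (3987163 to 3987478, signal 79.9, and 3987366 to 3987681, signal 13.5), with −log10 IDR of 2.08 for each. The stronger one shared 276 bp with the replicate 1 candidate and 110 bp with that of replicate 2, and the weaker one 75 bp and 276 bp, so each replicate's candidate lay mostly under a different region of the pair. In the second ranked list of the series the stronger region had a −log10 IDR of 0.928 and *cpn-3* was not called.

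*clik-1* (V, 6765768 to 6768732, minus strand) had a region over its first exon (6768493 to 6768808, signal 79.8, rank 544 of 728, −log10 IDR 2.23). The replicates gave 33.6 and 40.5, in candidates at the same position. Neither replicate's own list held it, with −log10 IDR of 0.0399 and 1.53, and it missed the second series list at 1.85. The summit lay 81 bp downstream of a 5′ end of *clik-1* and inside T25F10.1, a short protein-coding gene on the opposite strand (6768502 to 6768786), whose promoter window also held it. *clik-1* was the only one of the 4 bound genes whose region was shared with another coding gene's promoter, whereas 57.4% of the 632 bound genes shared theirs.

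*unc-87* (I, 6761221 to 6767797, minus strand) had no summit of the conservative list in its window. The series had 4 candidates there, all short of the threshold, and the best candidates were 23.4 in replicate 1 and 16.9 in replicate 2. A conservative region lay just outside, at −1401 bp, and no coding 5′ end was nearer to it (6769040 to 6769355, signal 67.1, 30.4 and 38.9 in the replicates, −log10 IDR 2.01). With a window from 2000 bp upstream it counted, making 5 of 10 members bound against 4.12% of all genes.

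The bound promoters were among the weaker regions of the conservative list. All 6 regions at members were below the list's median signal of 105.2, as were 44.7% of the 477 regions in promoters. Their −log10 IDR ran from 2.08 to 2.45, against a median of 2.73, and at an IDR of 0.001 the count of bound members was 0, where 1.45% of all genes were still bound. All 6 regions were 316 bp wide with the summit 158 bp from the start, the commonest form in the list (637 of 728). In these regions the summit is the midpoint of a set width.

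The count of members differed between lists. The second series list held *act-4* and *mup-2* (2 of 10, where 3.38% of all genes were bound). The replicate 1 list held *act-1*, *mup-2* and *cpn-3* (3 of 10, against 2.89%), and the replicate 2 list held 0 of 10, against 1.79%. Of the 4 genes of the conservative list, *act-4* and *clik-1* were in neither replicate's list, which was so for 20.4% of the 632 bound genes. *mup-2* and *cpn-3* were in that of replicate 1, as were 74.7% of all bound genes. Replicate 2 held 52.4% of the 632 genes and none of the 4.

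**Figure D2:**
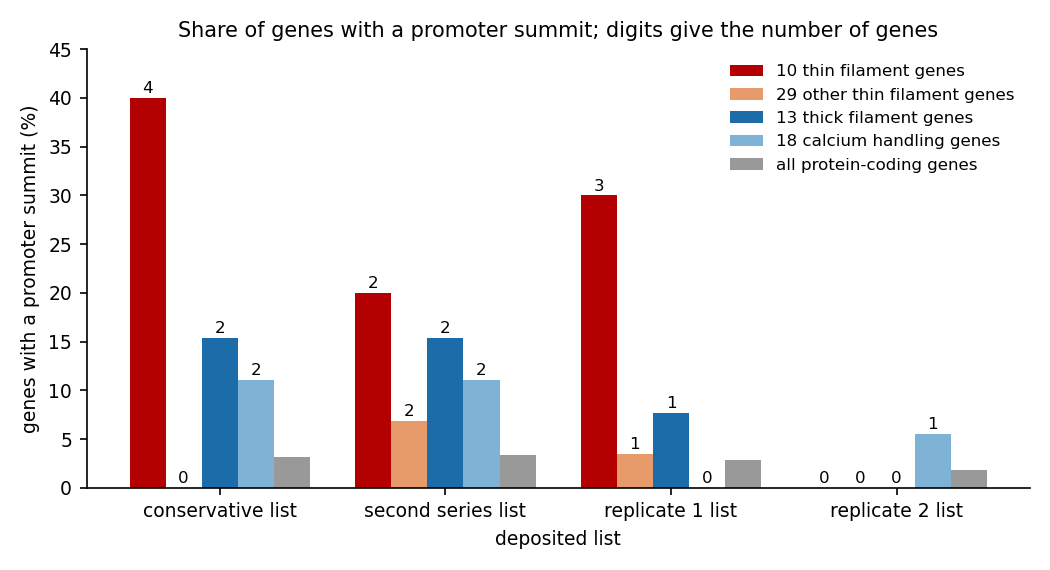
Share of genes with a promoter summit in each of the 4 thresholded lists, in percent, for the 10 members, 3 other gene lists and all protein-coding genes; digits above bars are numbers of genes. The members stand at 40% in the conservative list and at 0 in the replicate 2 list.

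Signal below the threshold was compared through the highest candidate in each gene's window, which needs no call. Nearly every gene has one (86.2% of all genes in replicate 1 and 88.0% in replicate 2), so its presence alone says little. Besides *lev-11*, the windows of *act-4* and *unc-87* (3002 bp each), *act-3* (2735 bp) and *clik-1* (1718 bp) exceeded the 1501 bp of the median gene. A wider window gives more chances of a high candidate. The median over the 10 genes was 33.1 in replicate 1 (range 5.63 to 63.7), beside 15.6 over all genes. In replicate 2 it was 25.4 (16.9 to 45.8), beside 15.9. Above the median of all genes lay 9 of the 10 in replicate 1, all but *unc-27*, and all 10 in replicate 2. Above the 90th percentile of all genes (27.3 in each replicate) lay 6 and 4 members. The same 4 genes that were bound, *act-4*, *mup-2*, *cpn-3* and *clik-1*, passed it in both replicates, as did 4.31% of all genes, while *act-1* and *act-3* passed it in replicate 1 only. Calls and signal come from the same reads, so the one is no support for the other.

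In order of the replicate 1 values, *cpn-3*, *act-1*, *act-4*, *mup-2*, *clik-1* and *act-3* came first. In replicate 2 the order was *act-4*, *mup-2*, *clik-1* and *cpn-3*, followed by *act-2*. *act-4*, *mup-2* and *clik-1* differed from each other by less than their replicates did, and each was higher in replicate 2. *cpn-3*, *act-1* and *act-3* were higher in replicate 1, *act-1* by 49.5 against 21.9.

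**Figure D3:**
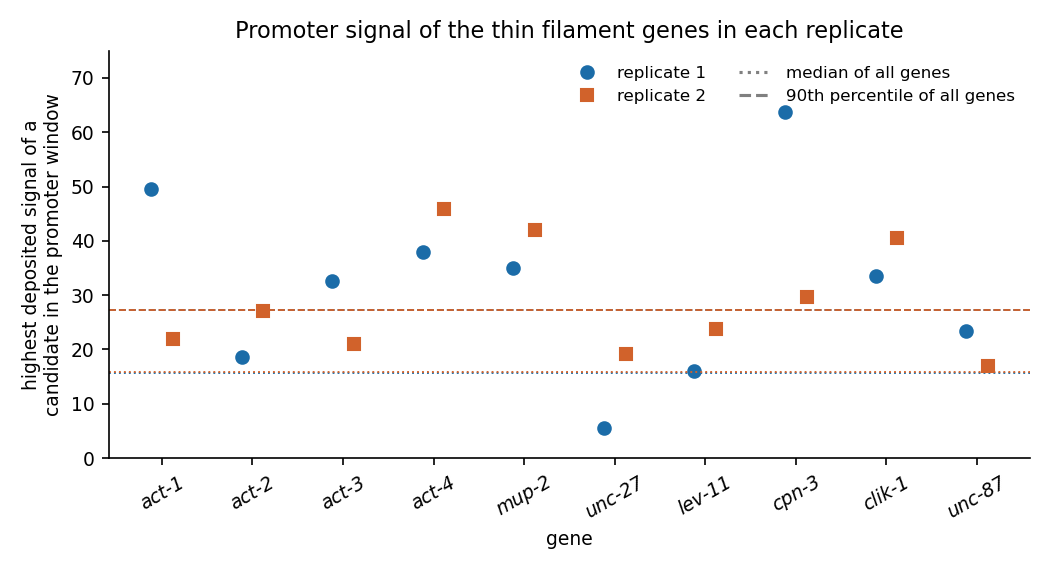
Highest deposited signal of a candidate region in the promoter window of each of the 10 genes, in replicate 1 (circles) and replicate 2 (squares), with the median and 90th percentile of all protein-coding genes as dotted and dashed lines, which nearly coincide between replicates. *act-4*, *mup-2*, *cpn-3* and *clik-1* lie above the dashed lines in both replicates.

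**Figure D4:**
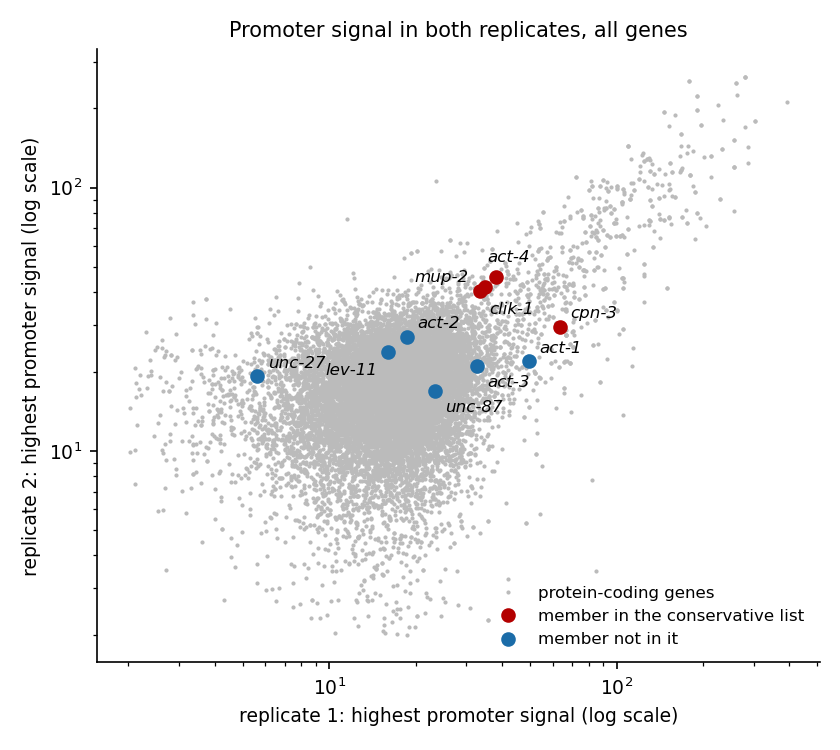
Highest promoter signal in replicate 1 and replicate 2 on log axes for the 15636 protein-coding genes with a candidate in both (grey), with the 10 members labelled. The 4 bound members (red) lie above 27.3 on both axes, among many other genes and below those with the highest signal in both replicates.

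Other gene lists, drawn up around the muscle machinery, were set beside the 10. A list of 30 further thin filament genes was used, of which 29 matched the annotation. It covers other troponin subunits, filament end-capping, severing and assembly proteins, and other calponin-like genes. It also holds *act-5*, *ketn-1* and *alp-1*. Whether each gene of this list, or of the thick filament and calcium handling lists, acts in muscle was not checked. In the conservative list 0 of 29 had a promoter summit, where 3.16% of all genes did, so for a list of this length a count of 0 is near the background. The second series list held 2 of 29 (6.90%, against 3.38% of all genes). These were *pat-10*, the troponin C gene of body wall muscle (I, 5020112 to 5020427, signal 72.0, with 26.6 and 46.5 in the replicates), and *cap-2*, the beta subunit of the actin capping protein (II, 10868802 to 10869117, 133.2, with 102.2 and 27.9). Both regions were shared with another gene, C46H11.6 and *gmps-1*. *cap-2* was also in the replicate 1 list, and neither gene was in that of replicate 2. The third gene of this list by summed signal was the troponin T gene *tnt-2*, with 25.5 and 35.5. The median best candidate of the 29 genes was 16.1 and 17.6 in the replicates, nearer to that of all genes than to that of the 10 members. Both the members and this list were chosen with earlier results of these data known. The contrast is thus no independent support for a difference between them.

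Thick filament genes had a promoter summit at 2 of 13 in the conservative list, *unc-54* (myosin heavy chain) and *unc-22* (twitchin), and calcium handling genes at 2 of 18, *sca-1* (calcium pump) and *unc-36* (calcium channel subunit), against 3.16% of all genes. The second series list also held 2 of each. The replicate 1 list held 1 thick filament gene and 0 calcium handling genes, against 2.89% of all genes, and the replicate 2 list held 0 and 1, against 1.79%. Their median best candidates were 22.1 and 24.1 for the thick filament, and 19.3 and 20.7 for calcium handling, in replicates 1 and 2. Differences between these short lists were not tested.

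Sequence around the summits was searched on both strands, to 100 bp on each side, for 9 motifs. GAGAG was found in the strongest region of each of the 4 bound genes and in 4 of the 6 regions. It occurred in 51.0% of all 728 conservative regions and in 29.7% of promoter stretches, taken at the same length directly upstream of the outermost 5′ end of each coding gene. Within 50 bp of the summit 3 of the 6 regions held it, beside 37.4% of all conservative regions. Of the 6 conservative regions only the stronger one of *act-4* held TATAAA, beside 14.2% of all conservative regions and 30.5% of promoter stretches. The E-box CANNTG, the class of site bound by the myogenic factor HLH-1, occurred in 2 of the 6 regions, beside 52.3% and 51.3%, and in both cases in the weaker region of a pair. Its forms CAGCTG and CACGTG were in 0 of 6, beside 5.63% and 7.55% of all conservative regions, and so were the CArG box and the MEF2 box, named for the factor families SRF and MEF2, beside 0.55% and 4.26%. GATAA was in 1 region (28.3% of all) and a run of TTTTTTT in 1 (27.9%). With 6 regions and such low shares, a count of 0 carries little information.

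Base composition varied among the bound regions. Over the same window at the summit, G and C made up 57.2% at *act-4*, 53.2% at *clik-1*, 50.7% at *mup-2* and 39.3% at *cpn-3*, beside a median of 43.0% over all conservative regions and 33.3% over the promoter stretches. The weaker *act-4* region, with its summit in an intron, had 29.4%. Whether base composition bears on the signal at these genes was not tested.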

How the data were processed

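ChIP-seq of UNC-98::GFP was measured in 2 replicates. Per the deposited readme files, the region lists are on ce11 and were made from filtered alignments with a control. The aligner is not given in the sources used here, nor is the peak caller. The deposited signal per region is the authors' score at a scale not stated, and the authors' ranked lists give a −log10 of the global IDR. Regions were called by the authors per replicate and on both replicates together. The deposited summit offset is in bp from the region's start. Depth is unknown without counts of reads, and no interval was computed.

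Genes came from Ensembl release 115 (WBcel235, 6 nuclear chromosomes) and sequence from RefSeq's copy of the build; all region ends lay within its chromosome lengths. Transcripts annotated as protein-coding gave the 5′ ends. An intron summit lay in no exon of the gene's coding transcripts. A series region's replicate signal was that of the candidate sharing most bases in the replicate's ranked list. Summit assignment was tested on made-up summits. Members, lists and motifs were chosen with earlier results of these data known. The text names all members, genes sharing their regions, other thin filament genes called in any list, the 3 of that list with the highest summed signal, and bound genes of the other lists. Python 3.11.15, numpy 2.4.6, pandas 2.3.3, matplotlib 3.10.9 and Biopython 1.88 were used. Alternatives covered lists, replicates, thresholds, windows and assignment.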

Additional observations from a re-analysis of the deposited data

How the results depend on the processing

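The count of 4 bound members stayed within 1.5 times under all 5 other windows and assignments, with 4 or 5 bound. The share of all genes bound under these ran from 2.26% (nearest 5′ end only) to 4.12% (window from 2000 bp upstream). The member count fell to 2 in the second series list (3.38% of all genes) and to 0 at an IDR of 0.001 (1.45%). With 1 replicate left out, where the IDR may rest on another comparison, it ran from 0 (replicate 2 alone, 1.79% of all genes) to 3 (replicate 1 alone, 2.89%). The single member with an intron summit, *act-4*, was also found in the second series list and with any base of the region counted. The count was 0 at an IDR of 0.001, which its −log10 IDR of 2.45 does not reach, and with promoter summits left out, since that summit also lies in the promoter window. It was 0 with either replicate left out, where the matching candidate of neither replicate passed the threshold. The medians of the best candidate moved by less than 5.42 in all 10 alternatives. That value is the SD of the 2 replicate medians, a loose measure since it rests on 2 values. The 2 alternatives that leave out members without a candidate could not move the medians, since every member has one. They ran from 28.5 to 33.1 in replicate 1 and from 24.5 to 28.4 in replicate 2. Of 9 motif counts, 3 moved with the narrower window. No paired analysis was possible because the study has 1 group. Without read counts, precision at single regions cannot be given.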

Other observations

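The conservative list held 27 pairs of overlapping neighbouring regions, and those of *act-4* and *cpn-3* are among them. In all 27, the region farther along the plus strand had the lower signal, and in 25 the −log10 IDR of both differed by less than 0.02. The members of a pair shared 64 to 117 bp. Only 21 of the 728 regions had a signal under 30, so the value of 6.89 at *act-4* and 13.5 at *cpn-3* are low for the list while their IDR is that of the stronger neighbour.

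A further conservative region lay at −5306 bp from *unc-87* (I, 6772945 to 6773260, signal 90.01, with 46.3 in each replicate, −log10 IDR 2.61), nearer to the 5′ end of *pqn-21*, 4627 bp away. It was stronger in the list than any region at the 10 promoters.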
